A study of Mus with 4 samples.

Results

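TBX3 regions inside gene bodies were 223 of the 773 TBX3 regions called from ChIP-Seq of mouse primary hepatocytes, or 28.8% (95% exact binomial interval 25.7 to 32.2%, covering counting error only). Bases scoring 3 or more were joined where 30 bp or less parted them, and a stretch of 200 bp or more on chromosomes 1 to 19 or X was a region. The score is a −log10 p-value that compares the ChIP reads at a base with those expected from Input, not corrected for the number of bases. The members were thus chosen by the score, and their scores, read levels and lengths are given here as a description with no test. A region counted as inside a gene body when its summit, the middle of its highest interval, lay in a protein-coding gene of RefSeq GRCm38 and more than 1 kb from every end of a protein-coding gene. The remaining regions lay within 1 kb of a gene end (213) or outside protein-coding genes (337). Across the track, 0.331% of bases scored 3 or more.

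ChIP-Seq was used in the study to look for genes that TBX3 might act on. The study sequenced 2 libraries of chromatin immunoprecipitated with an anti-HA antibody and 2 Input libraries, which hold sheared chromatin before immunoprecipitation. All 4 libraries carry the genotype label pT2-SVNeo-EF1-eGFP-P2A-Tbx3-HA: cultured primary mouse hepatocytes that express GFP and HA-tagged TBX3 from an EF1α promoter on a Sleeping Beauty transposon, selected with G418. The regions therefore describe overexpressed tagged TBX3 and not the endogenous protein, and libraries of an isotype control antibody or of cells without the tag are not analysed here. A single genome-wide track was used, which does not separate the libraries, so no value below has a replicate error and the depth of each library is unknown. ChIP measures protein on chromatin, not RNA, so the identity of the cells could not be checked against marker genes and a region in a gene says nothing of that gene's expression.

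TBX3 is a T-box transcription factor that binds DNA through its T-box domain and mostly represses transcription. In the liver its gene is a Wnt target, expressed in hepatocytes around the central vein, and it acts in liver development. A transcription factor can occupy promoters at gene starts, but also enhancers and silencers that lie within genes, often far from the start. A region in a gene body is therefore not evidence that the host gene is its target. Gene positions were available here without strand and without exons, so neither the transcription start nor the exonic or intronic position of a region can be given, and a gene end below means either end of a gene.

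The highest summit of all 773 regions lay inside Stab2 (gene 192188), which encodes stabilin-2, a scavenger receptor of liver sinusoidal endothelial cells that takes up hyaluronan. The region spanned chr10:86845148-86845815 (GRCm38), 668 bp, with its summit 4343 bp from the nearer end of this 166845 bp gene. Its score was 77.01. The read levels that give this score under a Poisson distribution were inferred as 78 ChIP reads against 3.34 expected from Input, or 23.4 times the expected level. These inferred read levels are used throughout. The expected level never fell below a constant genome-wide level of 2.43 reads over a base, which applies wherever local Input was not above it. Ranks from here on are among the members only. The next member scored 34.7 and lay in Phldb2 (gene 208177), whose protein anchors microtubules at the cell cortex. That region (chr16:45758643-45759146) had 40 reads at its summit, 16.4 times the expected level. The third, in Oxsr1 (gene 108737), which encodes a kinase of the WNK pathway that controls cation-chloride cotransporters, had a score of 29.9 and 36 reads (chr9:119265837-119266197).

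Gse1, which encodes a coiled-coil protein, held the fourth highest summit and also the longest region of all members. It spanned 1014 bp (chr8:120536699-120537712), with a score of 28.7 and 35 reads. The highest region of Golga7, a partner of a palmitoyltransferase that modifies Ras proteins, scored 24.1 with 31 reads (chr8:23256968-23257267). Ltbp1 encodes latent TGF-beta binding protein 1, which holds TGF-beta in the extracellular matrix. Its region (chr17:75110620-75111140) scored 23.7, also with 31 reads, and lay 105328 bp from the nearer end of the gene. Apbb3, whose protein binds the tail of the amyloid precursor protein, held the seventh summit, with a score of 23.0 and 30 reads (chr18:36672787-36673290). These 7 were the only members with a score of at least 20, and in the 5 of them from Oxsr1 to Apbb3 the summits differed by at most 6 reads.

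**Figure D1:**
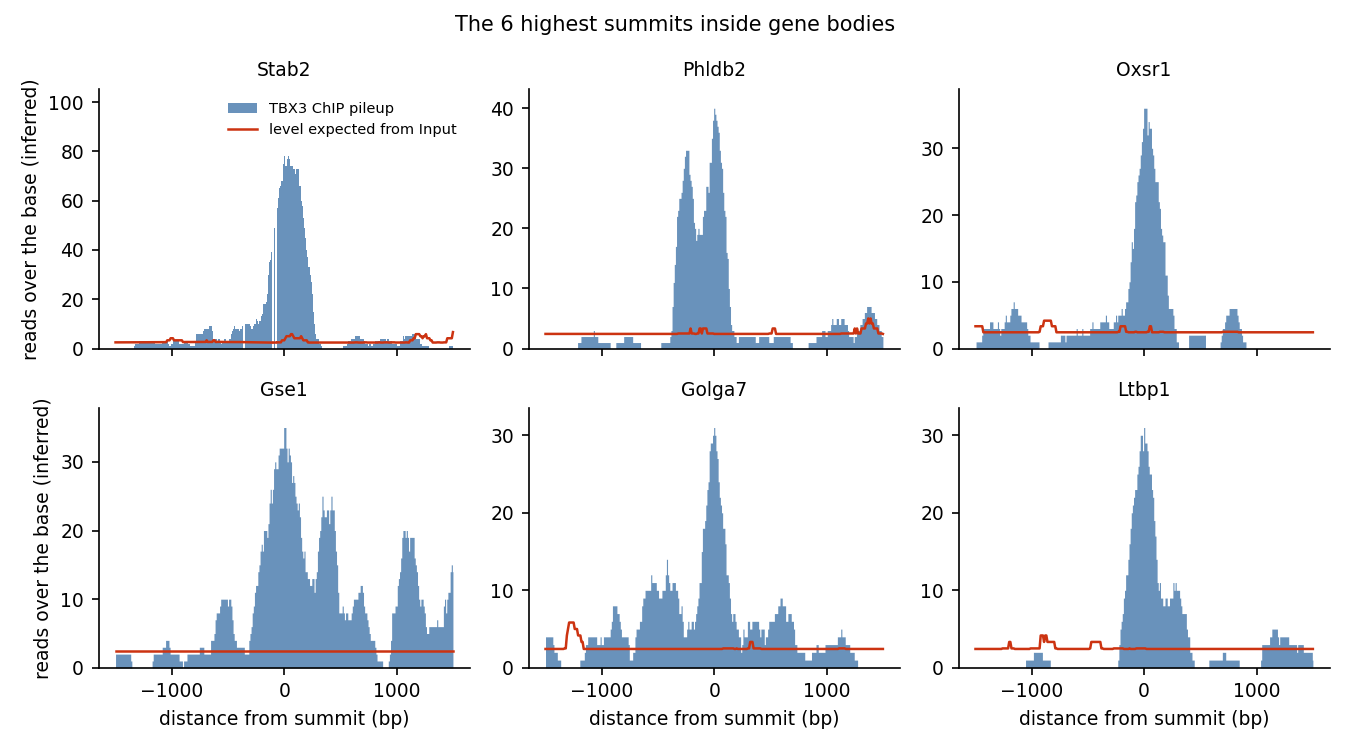
Inferred TBX3 ChIP reads over each base (blue) and the level expected from Input (red line) within 1500 bp of the 6 highest summits inside gene bodies, by distance from the summit in bp, with a separate vertical scale for each gene. Stab2 had 78 reads at its summit (79 at most within the region) and the other summits 31 to 40, while the expected level at all 6 summits lay between 2.43 and 3.34 reads; white gaps in the Stab2 panel are bases where no pair of levels was inferred.

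The other 13 of the 20 highest summits had scores of 13.6 to 18.6. Tmeff2, which encodes a transmembrane protein with follistatin-like and EGF-like domains, had a score of 18.6 from 26 reads. Summits of 15.5 with 23 reads each lay in Cyb5r3, which encodes the reductase of cytochrome b5, and in Ctif, which encodes a translation initiation factor that works with the nuclear cap-binding complex. Ntm, which encodes the adhesion molecule neurotrimin, had a score of 14.5, and 14.3 was reached in Plcg1, which encodes phospholipase C gamma 1, and in Ttc7. Dnah2, an axonemal dynein heavy chain, and Snx29, a sorting nexin, both had 13.6 with 21 reads. A further 4 of these summits lay in genes already named (Gse1 and Apbb3) or in Gphn, which encodes the synaptic scaffold gephyrin (14.8). The last, with a score of 16.2, lay where Cmss1 and Filip1l overlap; the only other summit in overlapping host genes, with 5.82, lay in Cdh23 and Vsir.

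In 5 members the median level expected from Input over the region exceeded the genome-wide level by a factor of 4 or more. It was 78.1 reads in Cdk8, 35.1 in Gphn, 30.1 at Cmss1 and Filip1l, 25.9 in Dock2 and 19.2 in Arhgap21. A high Input level stands beside the score at these 5 places, and its part in their scores was not tested. At 2 of them, Cmss1 with Filip1l and Cdk8, and at Nlrp4e, which belongs to a multigene family, no pair of read levels could be inferred at the summit. At 177 of the other 220 summits the expected level was the genome-wide one, so that local Input was not above it.

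Most members were far weaker than these. Summit scores ran from 3.57 to 77.01 with a median of 6.51 and quartiles of 5.01 and 8.13, and 34 members reached 10. Whole numbers of reads put the scores on steps. The most frequent score, 5.01, was shared by 35 members, and 165 members had 10 to 15 reads at the summit. The median summit had 13 reads, 4.93 times the expected level.

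Members were short, with 127 of 223 under 250 bp, a median of 236 bp and 14 of at least 500 bp. The median of the ChIP profile over the 220 members with inferred levels was 13 reads at the summit, 8 reads 100 bp below it and 9 reads 100 bp above it. At 500 bp on either side it was 2 reads, under the expected level of 2.43. The width of the profile at 50% of the summit's reads had a median of 290 bp (quartiles 250 and 352 bp). Reads rose and fell in steps of 1 at 97.7% of 7773 steps inside members, and the largest step was 5 reads.

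No summit lay close to the score threshold of 3, whereas lengths and distances ran up to theirs. The lowest member score was 3.57 in Vps33a, followed by 3.65 in Pde6b, Meis2, Edrf1 and Adam12. The shortest members, 200 bp each, lay in Ptprz1, Ermp1, Dock2, Cdk17, Auts2 and Kel. Runs just short of the minimum length, at 199 bp, lay in Carns1 with a score of 7.31 and in Lama2 and Alkbh5 with 5.75 each. The members nearest to a gene end were at 1045 bp in Atf6, 1063 bp in Cdk2ap2 and 1105 bp in Vmn2r80, a gene of a large receptor family. Regions just within 1 kb lay in Rbm15 at 999 bp, in Lyst at 968 bp and in Wrap53 at 961 bp. In gene bodies 85181 runs had a score of at least 3, with a median length of 28 bp, and only 0.262% of them reached 200 bp. Of 52 runs with a summit of at least 10, 18 were shorter than 200 bp and so were not members. The highest of these, in A830018L16Rik, scored 19.4 from 27 reads over a run of 97 bp.

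Regions inside gene bodies stood between the other classes in score. Their median of 6.51 compared with 7.96 at gene ends and 5.75 outside genes, and a score of at least 10 was reached by 15.2% of members, 23.5% of regions at gene ends and 9.50% of those outside. The median summit had 13 reads in gene bodies, 15 at gene ends and 12 outside. Median lengths were 236, 271 and 234 bp. Input raised by this factor over the region was found for 2.24% of members and 1.41% of regions at gene ends, against 8.61% outside genes. These differences were not tested, since the same score chose all 3 classes.

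**Figure D2:**
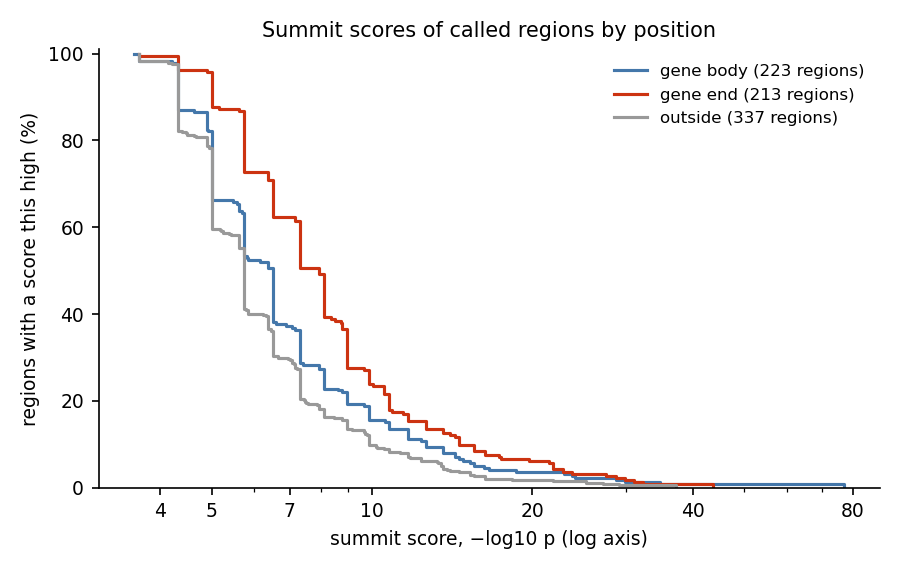
Share of called regions (vertical axis, %) whose summit score, as −log10 p on a log axis, is at least the value on the horizontal axis, for regions inside gene bodies (223), at gene ends (213) and outside protein-coding genes (337). The line for gene bodies lies between the other lines from a score of 5 to 20 and reaches the highest value, 77.01, the Stab2 summit.

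Gene bodies more than 1 kb from a gene end made up 983 Mb, or 38.4% of the bases considered, and held 22.7 regions per 100 Mb. The density outside genes was 22.5 per 100 Mb over 1498 Mb. Gene ends, with 78.0 Mb or 3.05% of bases, held 273 regions per 100 Mb. Within gene bodies the density was highest nearest to the gene ends. It was 66.2 per 100 Mb at 1 to 2 kb (25 regions), 28.5 at 2 to 5 kb (27) and 23.8 at 5 to 10 kb (28). It was 21.7 at 10 to 20 kb (33), 20.8 at 20 to 50 kb (46), 17.6 at 50 to 100 kb (26) and 18 beyond 100 kb (38). Median scores in these bins lay between 5.75 and 7.31, with the highest median at 2 to 5 kb. The median member was 19058 bp from a gene end, and the farthest was 910595 bp away.

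**Figure D3:**
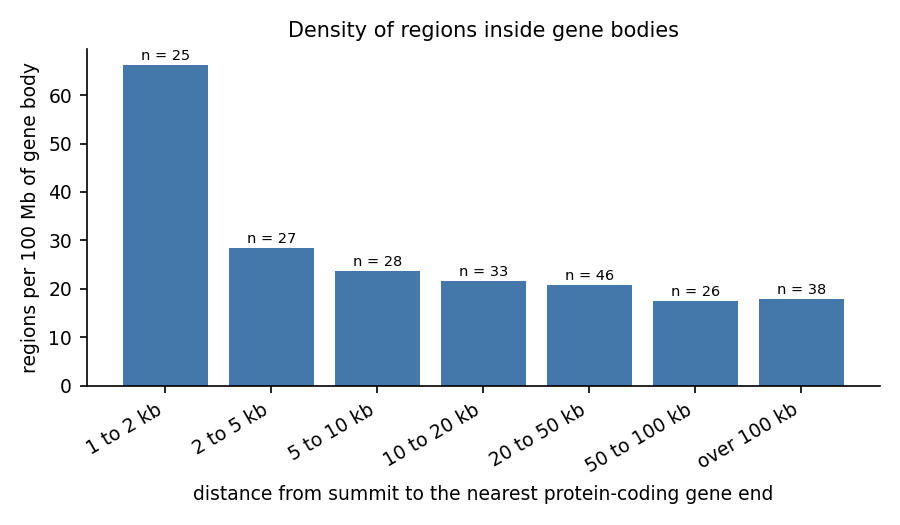
Regions inside gene bodies per 100 Mb of gene body sequence (bars, from 0) by distance of the summit from the nearest protein-coding gene end, with the number of regions above each bar. The bar at 1 to 2 kb reaches 66.2 and the others lie between 17.6 and 28.5; a single track gives no error bars.

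The 223 members lay in 206 host genes, 0.952% of the 21631 protein-coding genes on these chromosomes. Host genes were long, with a median of 100315 bp against 17329 bp for all protein-coding genes. A region was held by 8 of 7742 genes of up to 10 kb (0.103%), by 31 of 6391 of 10 to 30 kb (0.485%) and by 64 of 5071 of 30 to 100 kb (1.26%). Among genes of 100 to 300 kb the share was 3.21% (60 of 1870), and above 300 kb it was 7.72% (43 of 557). A longer gene offers more sequence to the rule, so the median gene length of each list stands beside its count below. At its own end, 9 host genes (4.37%) also had a called region, against 1.13% of all protein-coding genes. The strongest such pair was Lrig1, a brake on EGF receptor signalling, with 43.6 at an end and 10.7 in the body. At the end summit of Lrig1 no pair of read levels could be inferred. B3galnt2, a glycosyltransferase gene, scored 7.31 at an end and 11.7 in the body. The other 7 genes were Macrod2, Rbm15, Edrf1, Ctnna3, Klf16, Hsp90b1 and Phf12. In Rbm15 the summits of the member and of the end region were 256 bp apart, on either side of the 1 kb limit. Ctnna3, Klf16 and Hsp90b1 lie on chromosome 10, where the mean of the inferred ChIP reads was highest. The difference between the shares was not tested. The median of the highest score near the ends was 2.44 for host genes and 2.44 for all genes.

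More than 1 member was found in 15 host genes, which together held 34 members. In Gse1, 3 regions followed each other over a short stretch, with scores of 28.7, 13.6 and 16.5 and with 35, 21 and 24 reads. The third summit of Gse1 lay within 500 bp of Mir7687, a microRNA gene, and the other 2 near the long noncoding RNA gene 1700016A09Rik. Ppard, which encodes the fatty acid receptor PPAR delta, also held 3 neighbouring regions (scores 12.4, 6.51 and 11.7, with 20, 13 and 19 reads, chr17:28241517-28241868, chr17:28241906-28242124 and chr17:28242213-28242703). In the 8213 bp gene Apbb3 the 3 scores were 9.85, 23.0 and 15.3, from 17, 30 and 23 reads. The regions of each gene were parted by stretches of over 30 bp below the score cutoff.

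**Figure D4:**
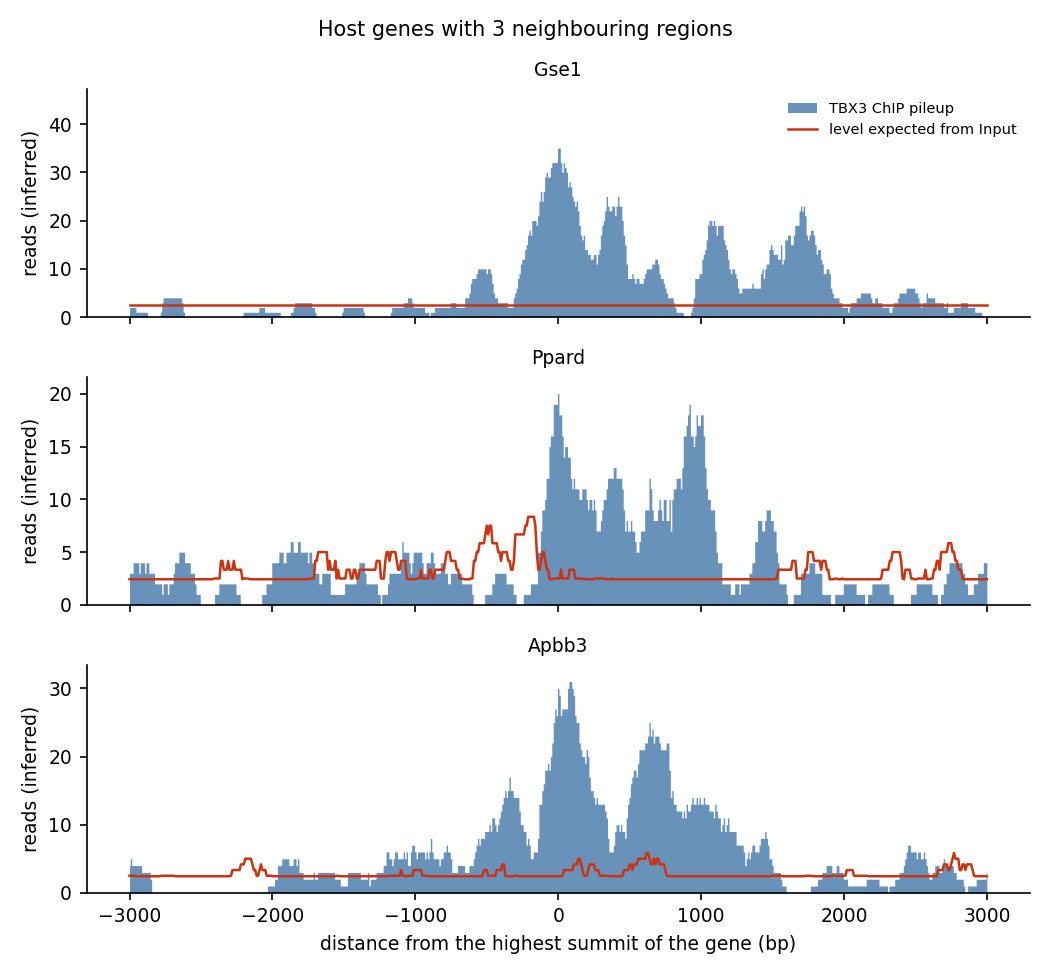
Inferred TBX3 ChIP reads over each base (blue) and the level expected from Input (red line) within 3000 bp of the highest summit in Gse1, Ppard and Apbb3, by distance in bp. Each gene shows several maxima. The summits of the called regions have 35, 21 and 24 reads in Gse1, 20, 13 and 19 in Ppard and 17, 30 and 23 in Apbb3, where reads reach 31 and 26 beside the last 2 summits, and the 1014 bp region of Gse1 holds another maximum of 25 reads.

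Pairs of neighbouring members lay in 6 more of these genes. Golga7 had 7.31 beside 24.1, Iqgap1, a scaffold for Rac and Cdc42, had 12.6 and 5.75, and Ntm had 14.5 and 6.51. Dagla, which makes the endocannabinoid 2-arachidonoylglycerol, had a pair of summits with equal scores of 9.85, 510 bp apart. Slco2a1, a prostaglandin transporter gene, had 8.13 and 5.01, and Ripor3 had 7.31 and 6.51. In all, 22 members (9.87%) had another called region within 2 kb, at 256 to 1086 bp. The share was 9.86% at gene ends and 5.64% outside genes. In the remaining genes with more than 1 member the regions were far apart. Atrnl1 held 3 (4.31, 5.01 and 5.75), and 2 each lay in Ctnna3, Cubn, Pcdh15, Pde4d and Samd5, with scores of 4.31 to 8.98.

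In 4 lists of signalling pathways, 1 or 2 genes of each held a member, and each share stands beside 0.952% over all protein-coding genes. In all genes of 30 to 100 kb, where the median lengths of these 4 lists lie, the share was 1.26%. All gene lists here were chosen with earlier results of these data known, and hosts that they leave out do not enter the shares. Of 60 genes of receptor tyrosine kinase signalling (median length 59638 bp), 2 held a member (3.33%). They were Lrig1 and Met, the receptor of hepatocyte growth factor, which had a score of 12.6 from 20 reads (chr6:17554828-17555047), 19058 bp from a gene end. Of 38 TGF-beta and BMP pathway genes (median 65083 bp), Ltbp1 and Tgif1 held a member (5.26%). Tgif1, a homeodomain repressor that acts with SMAD proteins, had 4.89 from 11 reads. Of 54 Wnt pathway genes (median 47041 bp) only Tle4, a Groucho family corepressor, had a member (1.85%), with 4.31 from 10 reads. Of 29 Hippo pathway genes (median 59543 bp) Stk4, which encodes the kinase MST1, had a member (3.45%), with 5.01 from 11 reads. The Tle4 and Stk4 regions were lost with a score cutoff of 5, with every 2 reads counted as 1 and with the expected level raised to chromosome depth. The Tgif1 region was lost under the first 2 of these settings.

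Of 46 genes of cell adhesion and junctions, 3 had a member (6.52%): Phldb2, the polarity gene Pard3 with 11.7 from 19 reads, and Ctnna3, which encodes an alpha catenin, with 7.96 and 5.01. The genes of this list are long, with a median of 133254 bp. In all genes of 100 to 300 kb the share with a member was 3.21%, as given above.

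Of 65 genes of the cell cycle and cytokinesis (median length 17767 bp), Mdm2, which encodes the ubiquitin ligase of p53, was the only host (1.54%), with 6.51 from 13 reads. None of the 56 listed hepatocyte genes (median 13635 bp) and none of the 23 listed bile duct cell genes (median 14722 bp) held a member. Hosts outside the lists, such as F5 (7.31), Ghr (6.51), Nek6 (8.13) and Cdk17 (7.31), do not enter these counts. Stab2 was the single host among 30 endothelial and sinusoidal cell genes (median 42976 bp, 3.33%). Among 17 T-box genes (median 17325 bp) the single host was Mga (5.88%), which pairs a T-box with a bHLH zipper domain and had 4.89 from 11 reads. The Mdm2 and Mga regions were also lost under each of the same 3 settings. The lists were not tested against other genes, and of all genes of 10 to 30 kb 0.485% held a member. The share was 1.26% in genes of 30 to 100 kb, where the median of the endothelial list lies. It was 3.21% in genes of 100 to 300 kb, where Stab2 lies.

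E2f7 and E2f8, repressors of the cell cycle that promote polyploidy in hepatocytes, were not host genes. The highest score in the body of each gene was 4.31, in runs of at most 94 bp in E2f7 and 71 bp in E2f8. The called regions of both genes are at gene ends, with scores of 22.8 and 15.5. Among the members, 7 had a higher score than the E2f7 region and 10 a higher one than the E2f8 region, with 2 equal to the latter. At the E2f7 summit, which lies on chromosome 10, no pair of read levels could be inferred.

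Noncoding genes were annotated within 500 bp of 14 of the 223 summits. The share of gene body sequence, or of the other regions, with such a gene as near was not counted. This count is therefore no result about the members. The neighbours were long noncoding RNA genes in 11 cases, among them Gm38560 at the Txnrd1 summit (11.7) and Gm30042 at both Dagla summits. A tRNA gene, n-TDgtc2, was near the Aqr summit (5.01), and Rnu1a1, which encodes a U1 small nuclear RNA, was near the Tex14 summit (9.85). U1 and tRNA genes have near-identical copies, between which the mapping could have divided reads. Whether it did so here was not tested. The outermost 10% of the host gene at each end held 49 members in all (22.0%). Each of these parts is 10% of gene length by definition, but the rule bars summits within 1 kb of a gene end. How much of the sequence open to members lies in these parts was not counted. The share is therefore no result about the members.

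The number of members differed between chromosomes and moved with the mean of the inferred ChIP reads on each, called its depth here. Chromosome 10 held 31 members (60.5 per 100 Mb of gene body), chromosome 2 held 30 (38.7), and chromosome 19 held 18 (67.8). Chromosome 12 held 1 member and chromosome 3 held 2. The mean of the inferred ChIP reads, relative to the autosome median, was 1.41 on chromosome 10, 1.19 on chromosome 19 and 1.10 on chromosome 2, against 0.896 on chromosome 12 and 0.806 on chromosome 3. The lowest depths, 0.701 on chromosome 4 and 0.764 on chromosome 9, went with 8.445 and 9.43 members per 100 Mb. Input moved alike. Its level was above the genome-wide one at 72.2% of bases on chromosome 10, 48.8% on 19 and 43.9% on 2. On chromosomes 12, 9, 3 and 4 it was so at 32.7%, 25.4%, 26.6% and 23.5%. Why chromosomes differ was not tested. Over the 20 chromosomes, Pearson's r of density with depth was 0.795 and Spearman's rank correlation was 0.710, as a description of points that share the same libraries and the same expected level. The 10 chromosomes with a depth above the autosome median held 158 members, 30.02 per 100 Mb, and the other 10 held 65, 14.2 per 100 Mb.

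Strong members were spread differently. On the 10 deeper chromosomes 13 members had a score of at least 10, or 2.47 per 100 Mb, and on the other 10 there were 21, or 4.60 per 100 Mb. Median scores were 5.75 and 7.31. Of the 20 highest members, 5 lay on the deeper chromosomes, the Stab2 region among them. When the expected level was raised to match the depth of each chromosome, 120 members were still called, 55 on the deeper chromosomes and 65 on the others. Chromosome 10 then held 6, chromosome 2 held 9, chromosome 19 held 4 and X held none of its 5. This setting can only raise the expected level, so by construction it left the 65 members on the other chromosomes, 15 of the 20 highest among them, as they were. The 5 of the 20 highest on the deeper chromosomes were still called, and the Stab2 summit scored 76.1.

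**Figure D5:**
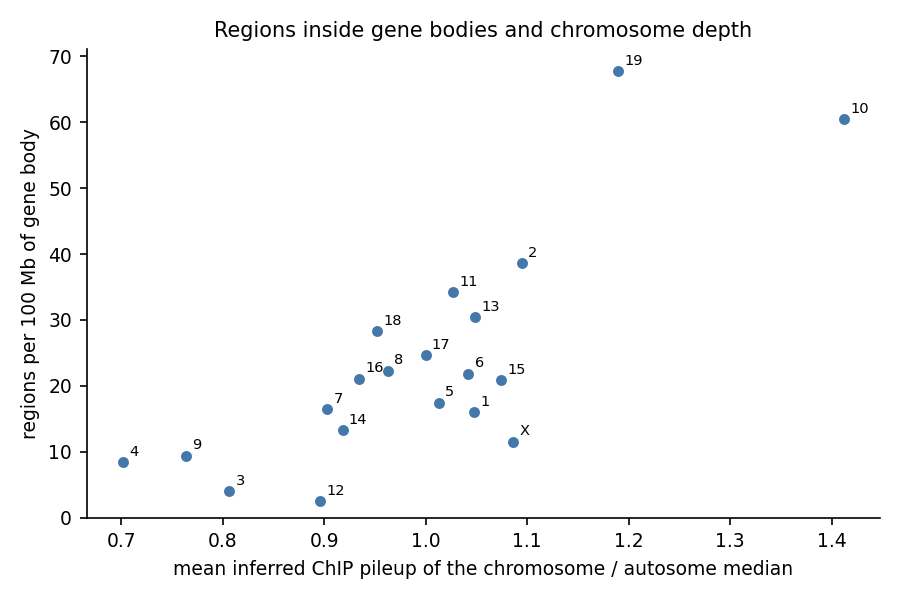
Regions inside gene bodies per 100 Mb of gene body (vertical axis) against the mean of the inferred ChIP reads relative to the autosome median (horizontal axis), 1 point per chromosome (1 to 19 and X, 20 points). Chromosomes 10 (depth 1.41) and 19 (depth 1.19) have the highest densities, 60.5 and 67.8, and chromosomes 12 and 3 the lowest.

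Most of the weaker members were lost when reads were counted otherwise or the cutoff was raised. Both changes act on the score that chose and ranked the members, so by construction they keep mainly the highest summits. The sources used here do not say whether mates of a pair were counted as separate reads. No pairs could be identified, so at bases scoring 3 or more every 2 inferred reads were counted as 1, rounded down. The expected level was divided by 2. The median summit score of members was then 3.56 instead of 6.51, and 144 of the 220 summits with inferred levels had a score of at least 3. In gene bodies 29 regions were called. A score cutoff of 5 gave 32 regions. Of the 223 members, 28 were called with reads halved, with the expected level raised to chromosome depth and with the cutoff of 5 alike. These 28 included 17 of the 20 highest, and 3 of them, in Cdk8, in Gphn and at Cmss1 and Filip1l, have the high Input level given above. At the summits in Cdk8 and at Cmss1 and Filip1l no read levels were inferred, so halving the reads rests there on other bases of the regions. Cyb5r3, Dnah2 and the Gse1 region of score 13.6 were lost with reads halved, and the latter 2 also with the cutoff of 5. The other 11 lay in Iqgap1, Txnrd1, Usp43, Ppard, Pard3, Cdk8, Herc2, Pfdn1, Sp2, Arrdc3 and Foxp1. Of the hosts named above from the gene lists, Stab2, Phldb2, Ltbp1 and Pard3 were among the 28, and Met, Lrig1, Tgif1, Ctnna3, Tle4, Stk4, Mdm2 and Mga were not.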

How the data were processed

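TBX3 ChIP (2 libraries) and Input (2 libraries) of mouse primary hepatocytes were mapped to mm10 with Bowtie2, sorted with SAMtools and compared with MACS2, per the submitters' processing notes; versions, duplicate treatment and how the libraries were combined are not given in the sources used here. The authors deposited a track of −log10 p-values, the score here, for ChIP reads over Input under a Poisson distribution, with 0 other columns of per-sample values, so no replicate comparison was possible. Depth per library is unknown.

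Regions were called as stated above. Genes came from RefSeq GRCm38.p6, without strand or exons. No genome sequence was used, so no sequence is printed and T-box motifs were not searched. Constant stretches over 5 kb were left out of base counts. Read levels were inferred by finding, for every score, a whole ChIP read count and an Input level that yield it, with as few changes along the chromosome as possible, and checked on simulated data. The genes named are hosts of the 20 highest members, hosts of more than 1 member, listed genes, members beside each threshold, and E2f7 and E2f8; hosts at other points were chosen after their values were seen. The result of 1 gene list is not reported here. Members and gene lists were chosen with earlier results of these data known. The tools were numba 0.67.0, pyarrow 21.0.0, matplotlib 3.10.9, scipy 1.17.1, pandas 2.3.3 and numpy 2.4.6 in Python 3.11.15.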

Additional observations from a re-analysis of the deposited data

How the results depend on the processing

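Every setting gives one value from the same track, so none has a replicate error, and no library could be left out. The number of members was 223. It was 48 at a score cutoff of 4 and 32 at 5, 610 when gaps of 100 bp or less were joined, 93 when none were, and 8622 at a minimum length of 100 bp and 50 at 300 bp. Counting each read pair once gave 29, and the Input level raised to chromosome depth gave 120. The share of all regions inside gene bodies, 28.85%, was 25.6% at the cutoff of 5, 25.13% at 4, 37.14% at 100 bp and 25% at 300 bp. It was 25.61% and 22.12% when members had to lie more than 2 or 5 kb from gene ends, and 34.67% with all annotated genes. The median ratio of ChIP reads to the expected level at summits, 4.929, was 8.704 at the cutoff of 5 and 7.804 at 4. It was 4.391 with gaps of up to 100 bp, 6.161 with no gaps, 4.107 at 100 bp and 6.982 at 300 bp. Among the regions called with reads halved it was 8.214. Stricter calling selects higher summits by construction. Leaving out regions with a high Input level at the summit gave 221 members, and leaving out those with a high median Input level, a setting chosen after the data were examined, gave 218. Settings of the T-box motif were not run, because no genome sequence was used here. No paired analysis was possible because the track does not separate the libraries and no test was made. Depth may limit what can be seen, but the depth of each library is unknown. At the expected level of 2.43 reads, most members rest on 10 to 15 reads, which follows in part from the rule that chose them.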
